A study of Danio rerio with 6 samples.

Results

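The genes described here encode enzymes that build cholesterol, together with the receptor that takes it up from lipoproteins. They were chosen by symbol from a list of 10 sterol synthesis and uptake genes, in the platform annotation of the array. Of these, 6 genes were measured, by 10 of the 15502 tested probe sets: hmgcs1, fdps, fdft1, cyp51, msmo1 and dhcr7. The other 4 genes of the list, hmgcra (the reductase that sets the rate of the pathway), idi1, sqlea and ldlra (the LDL receptor), have no probe set named here. A probe set is a group of short probes that together read 1 transcript.

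Tumour tissue of 6 zebrafish was hybridized, each to its own array, in 2 groups of 3. The small round blue cell tumours (SRBCT) came from fish with the genotype Tg(HSP:EWS-FLI1), p53 M214K/M214K, in which a heat shock promoter drives the human Ewing sarcoma fusion EWS-FLI1 from a transposon injected into embryos, so that its insertions are somatic. The malignant peripheral nerve sheath tumours (MPNST) came from non-transgenic fish, also homozygous for p53 M214K, and the p53 mutation is therefore shared by both groups. The labels call the replicates biological and give no age, and the fusion itself was not measured by these zebrafish probes. Values are log2 expression values as deposited, differences are SRBCT minus MPNST on that log2 scale, and SD is over n = 3 arrays. In whole tumours, fewer cells of a type and less RNA per cell cannot be told apart.

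Cholesterol is made from acetyl-CoA by a long chain of enzymes in the cytosol and the endoplasmic reticulum. The early steps form mevalonate and isoprenoids, squalene synthase commits the chain to sterols, and the late steps trim the lanosterol ring to cholesterol. In vertebrates most of these genes share a transcription factor, SREBP-2, which is released to the nucleus when membrane sterol is low and held back by INSIG proteins when it is high. The pathway is active in all growing cells and is strong in liver and in myelin-forming glia.

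Some tumours carried signal of other tissues or stood apart. SRBCT 3 correlated at 0.875 to 0.916 with the MPNST arrays across probe sets and at 0.864 and 0.892 with the other SRBCT arrays, and it lacked the high nkx2.2a signal of a known EWS-FLI1 target (4.18, with 10.76 and 9.58 on the other SRBCT arrays). sox10, a regulator of the Schwann cell lineage of MPNST, was high in both groups (10.66 ± 0.34 and 10.64 ± 0.17), and s100b, another Schwann cell marker, was at 8.37 ± 0.85 in SRBCT and 9.08 ± 0.11 in MPNST. Of the 11 genes of this tumour lineage list, 8 differences were above 0 and 3 below, and 0 were called by limma. The Schwann cell gene pmp22b (-4.26, adjusted p 0.112) and the neural crest gene foxd3 (-2.89, adjusted p 0.293) were lower on every SRBCT array than on every MPNST array, where 10.0% of all genes were. The separation of foxd3 was only 0.07. Another 3 genes were higher on every SRBCT array by their brightest probe sets, where 1080 of all 8793 genes were. They were nkx2.2a (4.46, adjusted p 0.2965), fli1 (0.53, adjusted p 0.350) and sox9b (means 9.47 in SRBCT and 4.467 in MPNST, adjusted p 0.282). On SRBCT 3 sox9b was at 5.19, with 11.62 and 11.60 on the other SRBCT arrays. For fli1 the lowest SRBCT value was 5.12 and the highest MPNST value 5.10, and its other probe set overlapped (0.203, adjusted p 0.736). The median level of 17 liver markers reached 10.09 on MPNST 1, with 4.18 to 4.82 on the remaining arrays, and that of 20 intestine and pancreas markers was 8.63 on SRBCT 3 against 4.75 to 6.0 elsewhere. Oocyte and egg coat markers were high on all MPNST arrays, their median level being 10.59, 9.05 and 8.77 against 4.22 to 5.13 in SRBCT. Of the 14, 9 fell in SRBCT at an adjusted p under 0.05 by limma, where 0.785% of all genes did so. Of 12 brain and glia markers the median level was 6.87 and 7.17 on SRBCT 1 and 2 and at most 4.70 on the other arrays, and that of 7 steroidogenic markers was low on every array (3.47 to 4.06). Most leukocyte markers lay on the same side as the cholesterol genes, 7 of 10 being below 0 and 3 above, with a median of -0.95. For 5 (ptprc, lcp1, coro1a, cd74a and cd74b) every SRBCT array was below every MPNST array, where 10.0% of all genes were. Among these, cd74b was separated by only 0.01, and another coro1a probe set overlapped (0.003, adjusted p 0.996). Of the 10 markers 0 were called by limma and 4 were at an unadjusted p under 0.05. RNA integrity was judged by the 3' signal of the GAPDH control less its 5' signal, a larger value being read as less intact RNA. This value was 0.64 ± 0.22 in SRBCT and 1.06 ± 0.035 in MPNST. The same measure of the acta1 control went the other way, at 0.74 ± 0.82 and -0.85 ± 0.17. The part of these differences in the results was not tested, and for the cholesterol genes values without MPNST 1 and without SRBCT 3 are given beside the results. Oocyte signal was high on all MPNST arrays and on no SRBCT array, so leaving out an array cannot tell it apart from tumour type.

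Most measured steps of cholesterol synthesis had lower means in SRBCT than in MPNST, but none passed the threshold over all 6 arrays. The median of the 6 genes was -1.18, against a median of 0.07 over all 8793 genes. Differences were below 0 for 5 of the 6 genes and for 44.1% of all genes. All 3 SRBCT arrays lay below all 3 MPNST arrays for 3 of the 6, hmgcs1, fdps and dhcr7, where 10.0% of all genes did so. Counted by probe set it was 7 of the 10, where 9.34% of all probe sets did so. Several of these probe sets read the same gene, cyp51 or fdps, so they are not independent. By limma, with p-values adjusted after Benjamini and Hochberg over all probe sets, 0 of the 6 were called, where 0.785% of all genes were called lower and 0.0910% higher. At an unadjusted p under 0.05 it was 3 of the 6, all lower, and 8.21% of all genes were lower at that level.

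**Figure D1:**
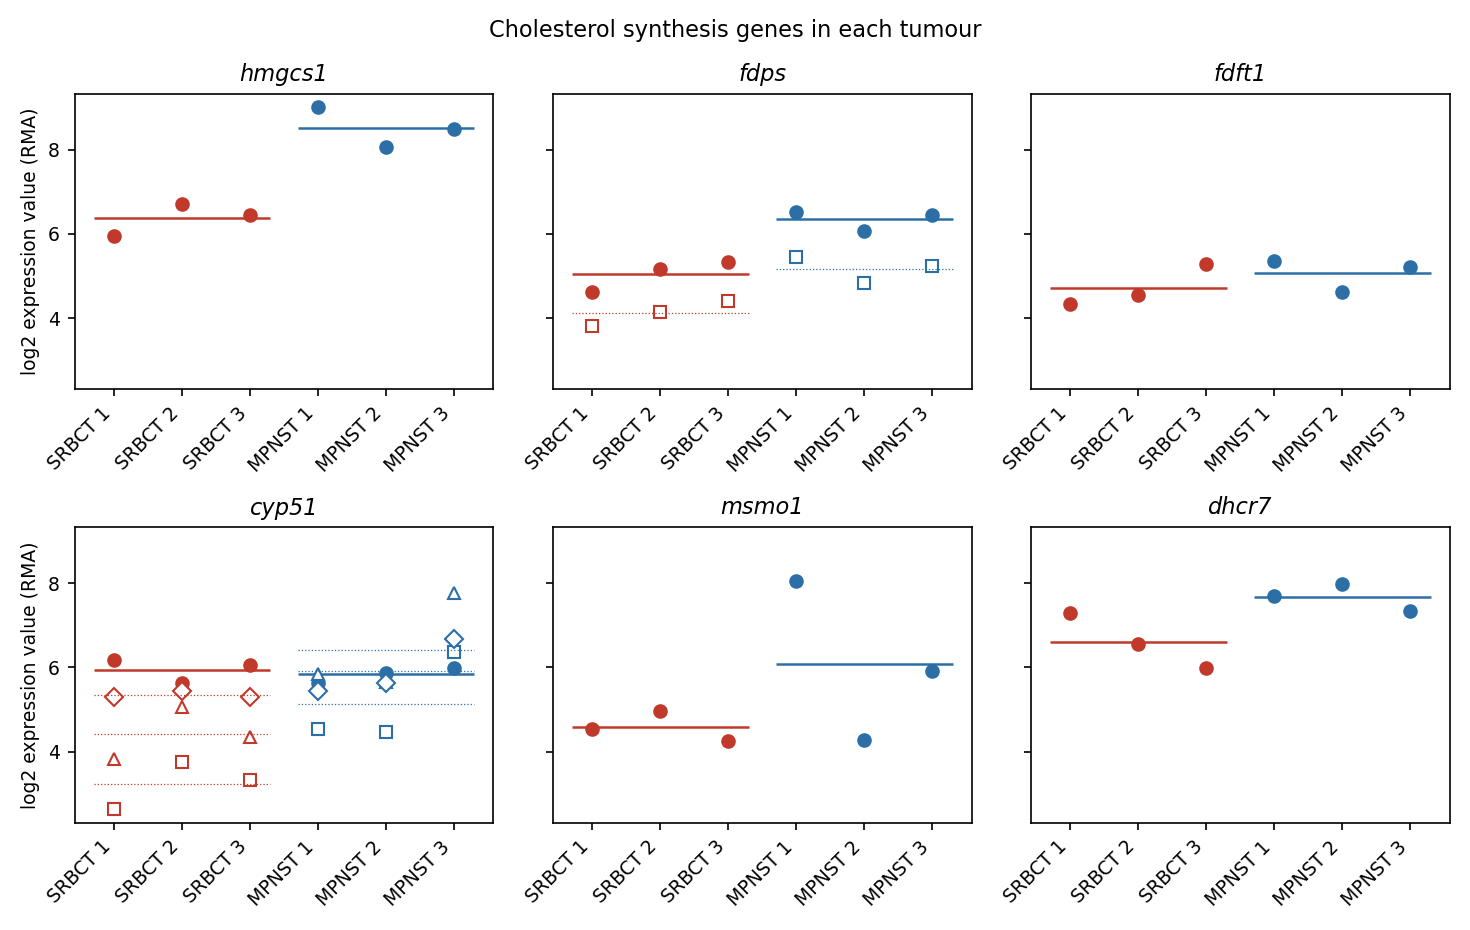
Log2 expression value (vertical axis) of the 6 measured genes on each of the 6 arrays (horizontal axis), SRBCT in red and MPNST in blue. Filled points are the probe set with the highest mean, open symbols the gene's other probe sets, and horizontal lines the group means. hmgcs1 lies between 5.96 and 6.71 in SRBCT and between 8.05 and 9.01 in MPNST, whereas the groups of fdft1 overlap.

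Among the 6 genes hmgcs1 had the largest difference. It encodes the cytosolic HMG-CoA synthase, which makes the substrate of HMG-CoA reductase. hmgcs1 was at 5.96, 6.71 and 6.45 on SRBCT 1 to 3 and at 9.01, 8.05 and 8.49 on MPNST 1 to 3. The groups did not overlap, and the lowest MPNST tumour lay 1.34 above the highest SRBCT tumour. The means were 6.37 ± 0.38 and 8.52 ± 0.48, a difference of -2.14 (SE 0.33, 95% confidence interval -2.94 to -1.35), or 4.42-fold lower in SRBCT. Its adjusted p in limma was 0.054, just short of the threshold of 0.05. Without SRBCT 3 hmgcs1 fell by 2.18 (adjusted p 0.0311), and without MPNST 1, the array with liver signal, the difference was -1.90 (adjusted p 0.119). Over the 15 alternatives it ranged from -2.38 to -1.90, with adjusted p from 0.0258 to 0.206.

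fdps encodes farnesyl diphosphate synthase, whose product feeds sterols, prenylated proteins, dolichol and ubiquinone. Its brighter probe set was at 4.62, 5.17 and 5.34 on SRBCT 1 to 3 and at 6.53, 6.06 and 6.44 on MPNST 1 to 3. The groups did not overlap, and the 3 MPNST tumours were close to each other. The difference was -1.30 (SE 0.26, interval -1.94 to -0.66), 2.46-fold lower in SRBCT, with an adjusted p of 0.112. The other fdps probe set was at 3.82, 4.14 and 4.42 in SRBCT and at 5.45, 4.83 and 5.23 in MPNST, again without overlap, a difference of -1.04 (adjusted p 0.167). Without SRBCT 3 the first probe set fell by 1.45 (adjusted p 0.0394), and without MPNST 1 it differed by -1.21 (adjusted p 0.305). In the fit without SRBCT 3, hmgcs1 and fdps were the 2 of 6 genes called, where 3.95% of all genes were called lower and 3.22% higher.

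fdft1 encodes squalene synthase, which draws farnesyl diphosphate into sterols. It was at 4.35, 4.55 and 5.29 in SRBCT and at 5.36, 4.63 and 5.21 in MPNST. The groups overlapped, since SRBCT 3 was as high as the higher MPNST tumours and MPNST 2 as low as SRBCT 2. The difference was -0.34 (SE 0.33, interval -1.14 to 0.47, adjusted p 0.64). For fdft1 it was -0.62 without SRBCT 3 (adjusted p 0.297), -0.56 without MPNST 2, -0.19 without MPNST 1 (adjusted p 0.878) and -0.15 without SRBCT 1. The interval allows a gap of more than 1 log2 unit lower, so this does not show that the groups were alike. The gene was dim, its mean over the 6 arrays lying at the 39.1 percentile of all probe sets.

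cyp51 encodes lanosterol demethylase, the first enzyme to trim the lanosterol ring, and its 4 probe sets disagreed. The brightest one, which stands for the gene, was at 6.17, 5.62 and 6.06 in SRBCT and 5.64, 5.88 and 5.99 in MPNST, with no gap (0.11, SE 0.22, interval -0.43 to 0.66, adjusted p 0.821). Another, which shares its name except for the orientation letter, was separated by only 0.02 and differed by -0.58 (adjusted p 0.468). For the remaining pair every SRBCT tumour lay below every MPNST tumour. One of these was at 3.82, 5.07 and 4.36 in SRBCT and at 5.84, 5.65 and 7.77 in MPNST, a difference of -2.00 (SE 0.64, interval -3.55 to -0.46, adjusted p 0.256). Its name marks probes that may match other transcripts. The other was at 2.64, 3.76 and 3.33 against 4.55, 4.46 and 6.36, and differed by -1.88 (adjusted p 0.248). In 3 of the 4 probe sets MPNST 3 was the highest tumour and the groups did not overlap. Without MPNST 3 the differences of this pair were -1.33 and -1.26, without MPNST 1 -2.29 and -2.17, and without SRBCT 3 -1.98 and -1.92. That of the brightest cyp51 probe set was 0.015 without MPNST 1 and 0.058 without SRBCT 3, and -0.04 without both. When the 4 probe sets were averaged the difference was -1.09 (adjusted p 0.293), so the direction for cyp51 rests on the choice of probe set.

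msmo1 encodes methylsterol monooxygenase, which begins the removal of methyl groups from the next intermediates. It was at 4.54, 4.96 and 4.26 in SRBCT and at 8.05, 4.27 and 5.92 in MPNST. The MPNST tumours differed among themselves by 3.78, from a level well above any SRBCT tumour on MPNST 1 to the level of SRBCT on MPNST 2. Over the 6 arrays the difference was -1.49 (SE 0.91, interval -3.70 to 0.71, adjusted p 0.47). Without MPNST 1 it was -0.51 (adjusted p 0.766), without MPNST 2 it was -2.40 (adjusted p 0.375), and without SRBCT 3 it was -1.33 (adjusted p 0.546).

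dhcr7 encodes the reductase of the last step, which yields cholesterol itself. It was at 7.29, 6.56 and 5.99 in SRBCT and at 7.69, 7.97 and 7.34 in MPNST. The groups did not overlap, but SRBCT 1 lay only 0.05 below MPNST 3. The difference was -1.05 (SE 0.37, interval -1.96 to -0.15, adjusted p 0.288), 2.07-fold lower in SRBCT. It was -1.04 without MPNST 1 (adjusted p 0.531) and -0.74 without SRBCT 3 (adjusted p 0.268).

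**Figure D2:**
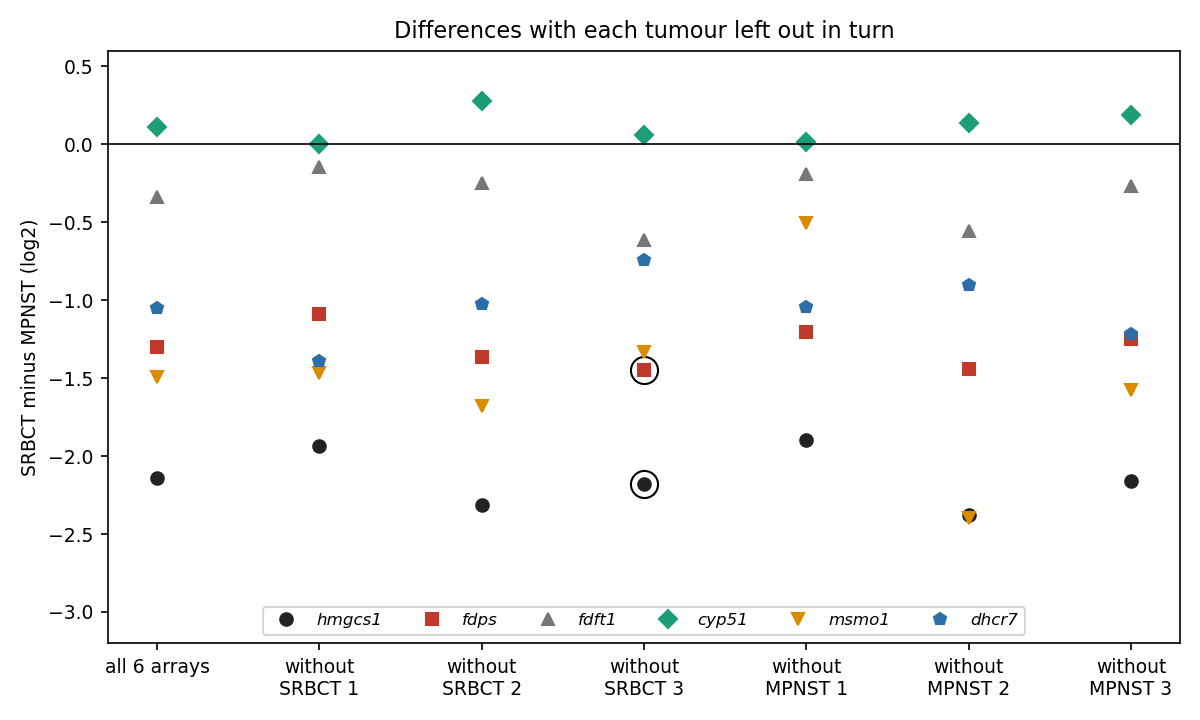
Difference SRBCT minus MPNST in log2 units (vertical axis) for each gene, by the probe set with the highest mean, with all 6 arrays and with each array left out (horizontal axis). Open circles mark adjusted p under 0.05, reached by hmgcs1 and fdps without SRBCT 3. msmo1 moves between -2.40 without MPNST 2 and -0.51 without MPNST 1, and hmgcs1 stays between -2.38 and -1.90.

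Within each group the steps did not follow one order of tumours. Of the 6 genes, 4 were highest on MPNST 1 (hmgcs1, fdps, fdft1 and msmo1), dhcr7 was highest on MPNST 2, and cyp51 by its brightest probe set on SRBCT 1. The lowest tumour was SRBCT 1 for 3 genes, SRBCT 3 for 2 and SRBCT 2 for 1, which was cyp51 by that same probe set. Each of the other cyp51 probe sets was lowest on SRBCT 1 and highest on MPNST 3. Relative to each gene's 6-array mean, the median of the 6 genes was -0.67, -0.45 and -0.67 on SRBCT 1 to 3 and 0.69, 0.18 and 0.45 on MPNST 1 to 3. MPNST 1 thus had the highest median, and it was also the array with the highest liver and oocyte markers. Whether liver or oocyte RNA contributed to its sterol signal was not tested. Leaving out MPNST 1 moved the median difference of the 6 genes from -1.18 to -0.775, and leaving out SRBCT 3 as well moved it to -0.60. The median over all probe sets was then 0.06. All 6 genes were then below 0, but cyp51 by its brightest probe set only at -0.04 (SE 0.287, adjusted p 0.966). None of the 6 was called, where 3.09% of all genes were called lower and 2.05% higher. In that fit hmgcs1 differed by -1.93 (adjusted p 0.064) and fdps by -1.36 (adjusted p 0.102), while msmo1 was at -0.34 (adjusted p 0.838).

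**Figure D3:**
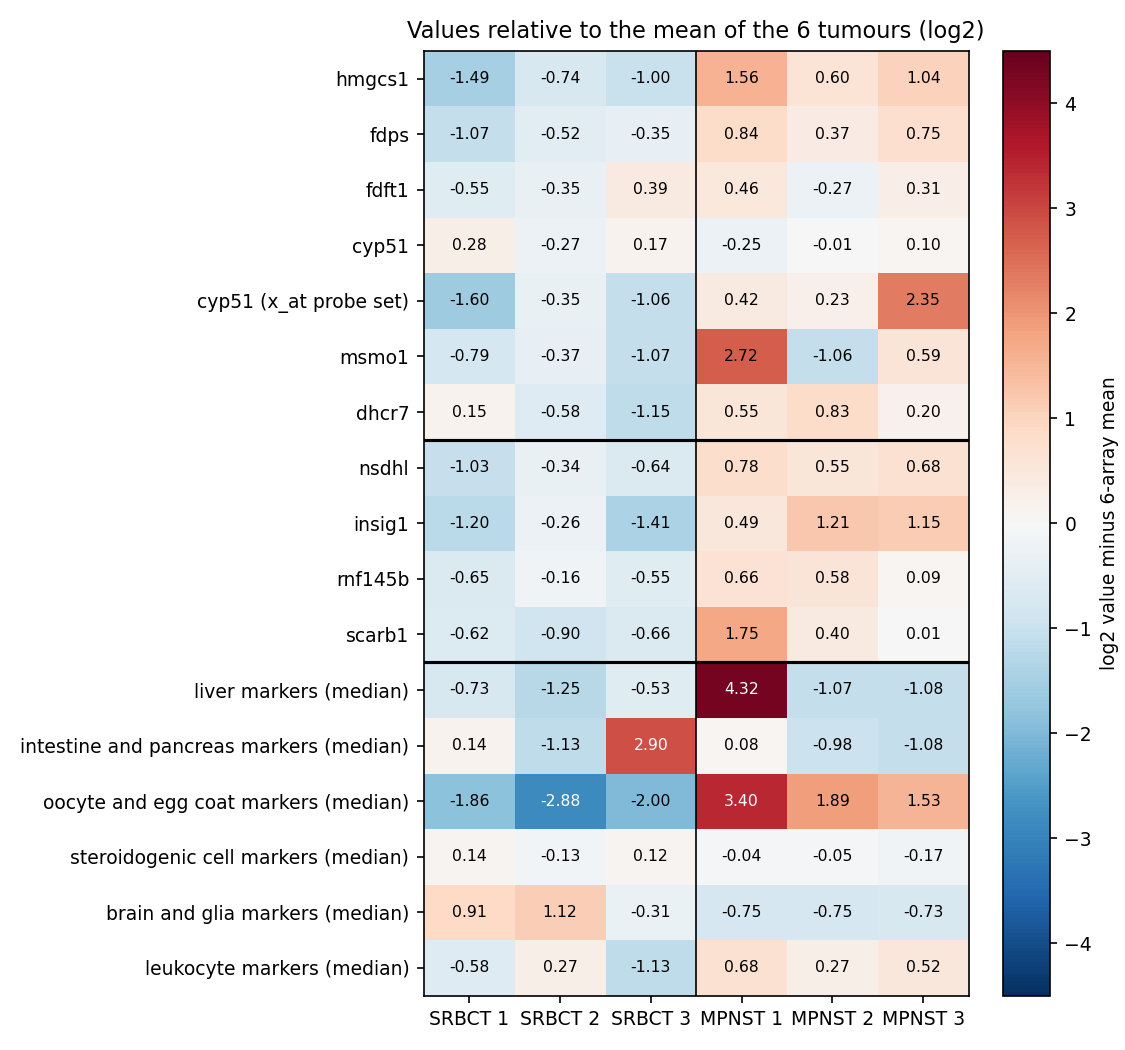
Log2 value minus the 6-array mean (colour and printed number) by array, for the measured genes by their brightest probe set. A further row shows the cyp51 probe set whose name marks probes that may match other transcripts. Below are the 4 of 41 genes of neighbouring lists in which every SRBCT array lay below every MPNST array, where 10.0% of all genes did so. pggt1b, the 1 neighbouring gene with every SRBCT array above, where 1080 of all 8793 genes were, is not shown. The last rows give the median of each marker list except tumour lineage. hmgcs1 ranges from -1.49 on SRBCT 1 to 1.56 on MPNST 1, where liver markers are at 4.32 and oocyte markers at 3.40.

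Other enzymes of the pathway were measured for 4 of 17 listed genes, and none of the 4 passed. nsdhl, a dehydrogenase that works with methylsterol monooxygenase on the same methyl groups, was at 5.08, 5.77 and 5.47 in SRBCT and at 6.89, 6.66 and 6.79 in MPNST. The groups lay far apart relative to their spread, with a difference of -1.34 (SE 0.23, interval -1.91 to -0.78, adjusted p 0.0779). Without SRBCT 3 nsdhl fell by 1.35 (adjusted p 0.046), and without MPNST 1 it differed by -1.28 (adjusted p 0.236). The other 3 genes overlapped between the groups. They were mvk, the mevalonate kinase gene (-0.40, adjusted p 0.53), acat2, the thiolase gene of the first step (-0.26, adjusted p 0.726), and lbr, a sterol reductase that also anchors chromatin at the nuclear envelope (-0.12, adjusted p 0.886). The other lbr probe set differed by -0.86 (adjusted p 0.451), also with overlap. The median of the 4 was -0.33, or -0.445 with the probe sets of each gene averaged, and all 4 were below 0. It was -0.60 without MPNST 2, -0.19 without MPNST 1, and -0.085 without SRBCT 3 and MPNST 1, where acat2 (0.025) and lbr (0.12) were above 0.

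In the control of the pathway, 6 of 17 listed genes were measured, 3 above and 3 below 0, with 0 called and a median of -0.01 that ranged from -0.42 without SRBCT 1 to 0.16 with array weights. insig1, which holds the SREBP escort protein in the endoplasmic reticulum and is itself an SREBP target in mammals had the lowest difference of the list. Its brightest probe set was at 5.87, 6.81 and 5.66 in SRBCT and at 7.56, 8.28 and 8.22 in MPNST. The difference was -1.91 (SE 0.37, interval -2.82 to -0.997, adjusted p 0.109), and the groups did not overlap. The 2 other insig1 probe sets were separated in the same way, at -1.61 (adjusted p 0.219) and -1.25 (adjusted p 0.283). On MPNST 1 insig1 was the lowest of the 3 MPNST tumours in every probe set, unlike hmgcs1, fdps, fdft1 and msmo1, which were highest there. Without MPNST 1 the difference was -2.14 (adjusted p 0.159), without SRBCT 3 it was -1.68 (adjusted p 0.0667), and with array weights insig1 fell by 2.11 (adjusted p 0.0345).

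rnf145b encodes a ubiquitin ligase of the endoplasmic reticulum whose mammalian ortholog acts on sterol sensing proteins. It was at 7.36, 7.85 and 7.46 in SRBCT and at 8.67, 8.59 and 8.10 in MPNST (-0.90, SE 0.25, adjusted p 0.208), with no overlap, and differed by -0.79 without MPNST 1 and by -0.85 without SRBCT 3. The remaining control genes overlapped between groups. insig2 differed by 0.15 (adjusted p 0.773), mbtps1, the protease that makes the first cut in SREBP, by 0.17 (adjusted p 0.678), faf2, which helps extract ubiquitinated proteins from the endoplasmic reticulum, by 0.28 (adjusted p 0.645), and mylipa, whose mammalian ortholog marks the LDL receptor for degradation, by -0.18 (adjusted p 0.931). For faf2 another probe set differed by 0.60 with all SRBCT arrays above all MPNST arrays (adjusted p 0.335).

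**Figure D4:**
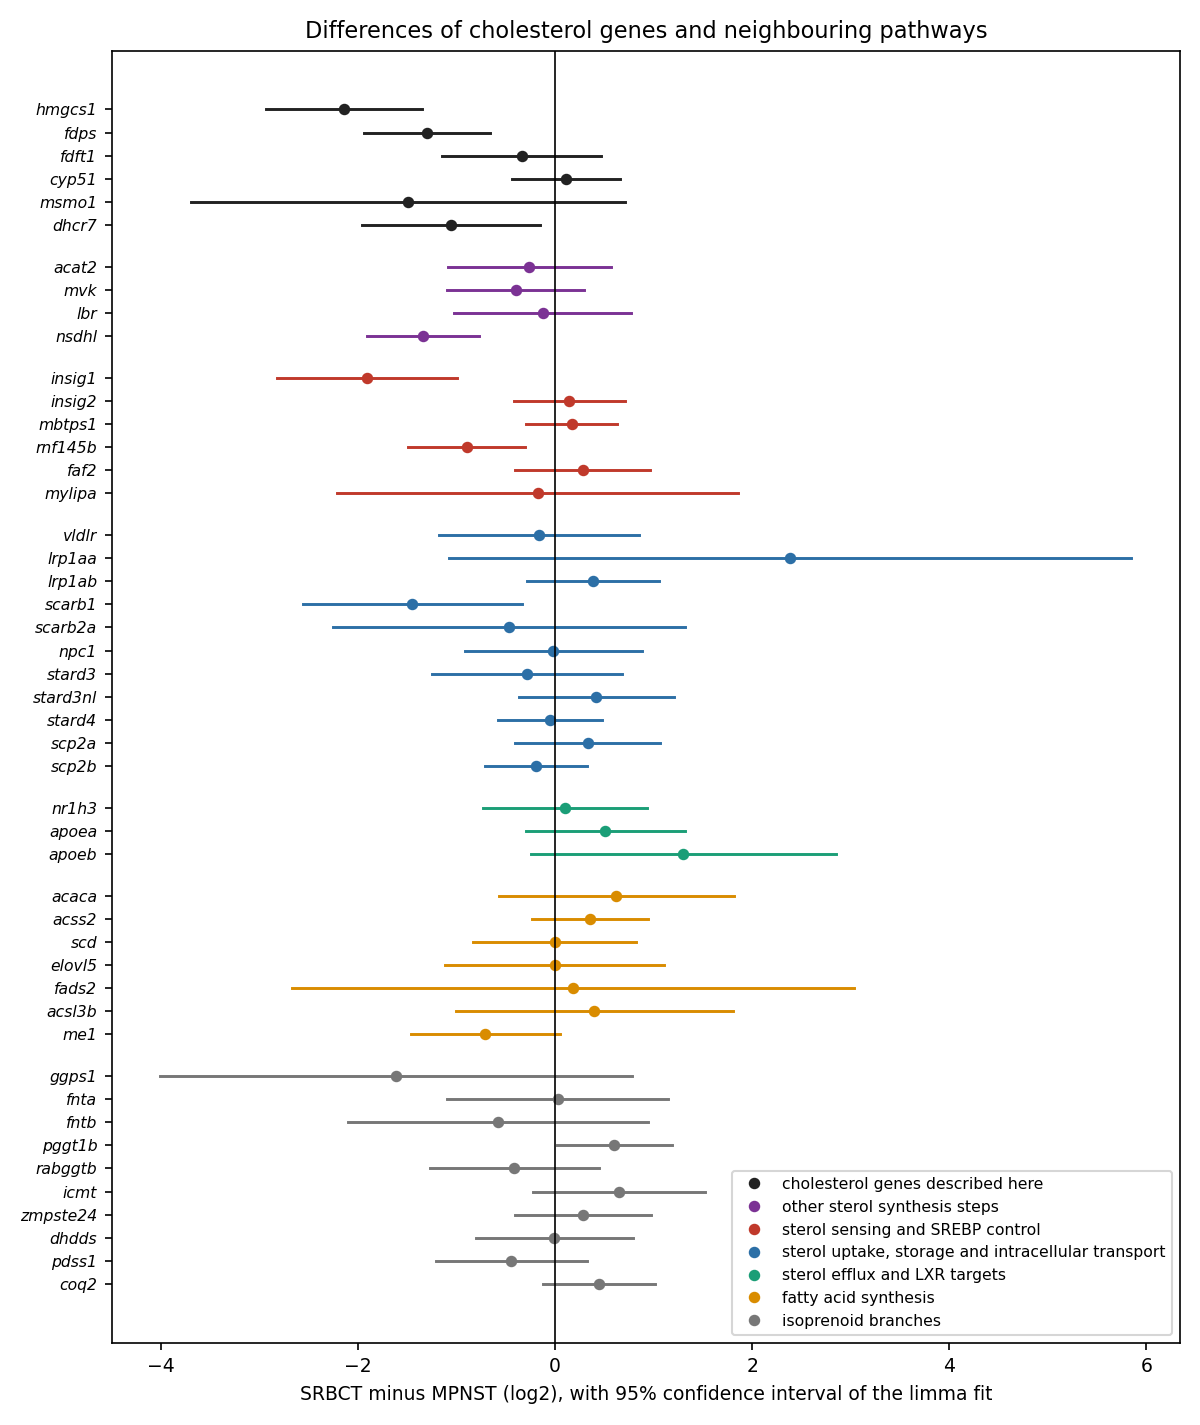
Difference SRBCT minus MPNST in log2 units (horizontal axis) with the 95% confidence interval of the limma fit (bars) for each measured gene (vertical axis), by its probe set with the highest mean, grouped by list. The intervals of hmgcs1, fdps, dhcr7, nsdhl, insig1, rnf145b and scarb1 lie below 0 and that of pggt1b above it, unadjusted for the number of genes, and those of the fatty acid synthesis genes cross 0.

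Pathways next to cholesterol synthesis had medians between -0.05 and 0.51 over all 6 arrays. In uptake, storage and transport (11 of 20 measured, 4 above and 7 below 0, median -0.05, from -0.14 to 0.12 over the alternatives) none passed. scarb1, the HDL receptor gene, was at 6.84, 6.56 and 6.80 in SRBCT and at 9.21, 7.86 and 7.47 in MPNST (-1.45, SE 0.46, adjusted p 0.255), again highest on MPNST 1, and without MPNST 1 scarb1 differed by -0.93 (adjusted p 0.307). lrp1aa, of the LDL receptor family, had levels of 10.22 and 10.58 in the first pair of SRBCT tumours but 5.22 on SRBCT 3, against 6.35, 5.65 and 6.87 in MPNST (2.38, adjusted p 0.467). Without SRBCT 3 lrp1aa rose by 4.11 (adjusted p 0.00609). Of the efflux list 3 of 15 genes were measured, all above 0 with a median of 0.51 (0.17 without SRBCT 3) and none called. Among them apoeb, an apolipoprotein E gene, was at 9.54, 10.30 and 8.12 in SRBCT and 8.68, 7.23 and 8.14 in MPNST (1.30, adjusted p 0.392, and 1.64 without MPNST 1 or 1.90 without SRBCT 3), and apoea differed by 0.51 (adjusted p 0.495, and 0.17 without SRBCT 3).

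The fatty acid synthesis list, under the related factor SREBP-1 in mammals, had 7 of 14 genes measured, 4 above and 3 below 0, with a median of 0.18 (-0.085 to 0.48 over the alternatives) and none called. me1, the malic enzyme gene that supplies NADPH, differed by -0.71 (interval -1.46 to 0.05, adjusted p 0.351, and -0.43 without MPNST 1), and acss2, which makes acetyl-CoA from acetate, by 0.35 (adjusted p 0.51). The other, dimmer me1 probe set differed by 0.003 (adjusted p 0.995). All 7 overlapped between the groups. The isoprenoid branches that leave the pathway at farnesyl diphosphate had 10 of 16 genes measured, 5 on each side of 0, with a median of 0.01 (-0.28 with array weights to 0.18 without MPNST 2) and none called. pggt1b, a subunit of a protein prenyltransferase, was at 7.77, 7.63 and 7.70 in SRBCT and 6.66, 7.33 and 7.30 in MPNST (0.60, adjusted p 0.318, and 0.39 without MPNST 1), and coq2 of ubiquinone synthesis differed by 0.44 (adjusted p 0.42). Without SRBCT 3, ggps1 of geranylgeranyl synthesis fell by 2.77 (adjusted p 0.0152) and icmt, which methylates prenylated proteins, rose by 1.05 (adjusted p 0.0337). ggps1 had levels of 5.25 and 5.87 in the first pair of SRBCT tumours but 9.04 on SRBCT 3, above the MPNST tumours at 8.78, 7.78 and 8.44. Both genes, like nkx2.2a, sox9b, fli1, pmp22b, foxd3 and the 5 leukocyte genes above, were chosen after their values were seen. Over the 41 measured genes of all neighbouring lists, every SRBCT array lay below every MPNST array for 4 (nsdhl, insig1, rnf145b and scarb1). That was near the 10.0% of all genes that did so. For 1 (pggt1b) every SRBCT array lay above every MPNST array, where 1080 of all 8793 genes did so. Whether these lists differ from the cholesterol genes was not tested.

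Among 4395 other genes with a 6-array mean of at least 6.25, the median of all genes, those whose profile over the 6 arrays was nearest to the median profile of the cholesterol genes were chmp2bb, tsc22d2, slc48a1b, akip1 and wasb. Nearness was the root mean square difference of centred log2 values over the 6 arrays. It was 0.144 for chmp2bb, which belongs to a family of membrane-scission proteins, and 0.199 for wasb, an actin regulator of blood cells in mammals, against a median of 0.733 over the genes considered. chmp2bb was at 7.05, 7.07 and 7.01 in SRBCT and at 8.07, 7.87 and 8.03 in MPNST. Since a group difference of about 1 log2 unit dominates this profile, genes with such a gap are near it by construction.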

How the data were processed

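Per the labels' protocols, 2.5 micrograms of total tumour RNA were amplified to biotin-labelled cRNA for each array. The deposited values are log2 expression values, 1 per probe set and array, and the submitters' processing notes name RMA, affy and R 2.2.0. Base 2 follows from RMA and from values between 1.86 and 13.88. Filters are not given in the sources used here, and scanner files were not analysed here.

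Of 15617 probe sets, 115 controls were left out and 15502 tested with limma 3.58.1 in R 4.3.3 (lmFit, eBayes), 3 SRBCT against 3 MPNST without covariates. Benjamini-Hochberg adjustment ran over all of them, and an adjusted p under 0.05 was called. The steps were tested on simulated data. The 3 arrays per group limit the precision.

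Symbols came from the platform annotation of 2016, updated through Entrez identifiers to a RefSeq table of GRCz12tu (1 updated, 84 not found and kept). Of the probe sets 10795 had 1 symbol, 135 several and 4572 none here. The probe set with the highest 6-array mean stood for a gene (8793 genes). No sequences or positions were used.

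The members and gene lists were chosen with earlier results of these data known. Named genes are all members with every probe set, all measured genes of the synthesis and control lists, in each other neighbouring list the called genes or otherwise the 2 with the smallest p, the called genes of each marker list or otherwise the 2 with the highest level (applied to the tumour lineage list, the other marker lists being given as medians and counts), and the 5 genes nearest in profile. The genes ggps1, icmt, nkx2.2a, sox9b, fli1, pmp22b, foxd3, ptprc, lcp1, coro1a, cd74a and cd74b lie outside that rule. The alternatives concerned scaling (cyclic loess, median centring, quantile normalization once more), dim probe sets left out, the variance model (trended and robust), array weights, the replicate block, each array left out, and the average of a gene's probe sets. Leaving out SRBCT 3 and MPNST 1 together was added after seeing the data.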

Additional observations from a re-analysis of the deposited data

How the results depend on the processing

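The number of probe sets called over all 15502 was 140, and it was 278 with array weights, 88 with the replicate block, between 26 (without SRBCT 1) and 1140 (without SRBCT 3) when 1 array was left out, and 786 without SRBCT 3 and MPNST 1. Of the 6 cholesterol genes none was called over all arrays, 1 (hmgcs1) with array weights, and 0 to 2 with 1 array left out. Without dim probe sets, in a fit of 7752 probe sets that kept 4 of the 6 genes, 1 (hmgcs1) was called. In that fit 204 of the 7752 probe sets were called, 173 lower and 31 higher. The median difference of the cholesterol genes, -1.18, was -0.865 with array weights, -0.60 without SRBCT 3 and MPNST 1, and between -1.24 and -0.775 with 1 array left out. It stayed below 0 in all 15 alternatives. The variance model and the replicate block could not change it, since both leave the estimated differences as they are. Of the 41 neighbouring genes none was called, but 2 with array weights (nsdhl and insig1, lower), 2 without SRBCT 3 and MPNST 1 (lrp1aa higher, ggps1 lower) and 0 to 4 with 1 array left out. Without SRBCT 3 and MPNST 1, 3.09% of all genes were called lower and 2.05% higher. The 4 came without SRBCT 3, where 3.95% of all genes were called lower and 3.22% higher. The cause of these changes was not tested. The labels name no pairing of the tumours by replicate number. Deviations of same-numbered arrays correlated at 0.063, 0.07 and -0.046 over all probe sets, which does not decide whether some genes share a replicate effect. The replicate block changed no call of a cholesterol gene (hmgcs1 adjusted p 0.182 in limma). No background or detection call was used here, so signal over background is unknown, also for fdft1 and msmo1, both below the median level of 5.57. Below that level too were the dimmer fdps probe set (mean 4.65) and the cyp51 pair with the larger differences (means 4.18 and 5.42).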
